A study of Mus musculus with 8 samples.

Results

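Alk, Ret, Ntrk2, Ntrk3, Ngfr, Gfra1, Gfra2 and Gfra3 encode the cell-surface receptors through which neuroblastoma (NB) and sympathetic nerve cells receive growth and survival signals. These 8 receptor genes were chosen by name, with no threshold on their values, out of 35419 genes with a symbol, and all 8 were present in the files. RNA was sequenced from subcutaneous tumors that 1000000 N2A (Neuro-2a) cells, a mouse NB line, had formed in A/J mice. Of 8 tumors, 4 came from mice given vehicle (numbered 0, 1, 2 and 3) and 4 from mice given SR59230A, which blocks the β3-adrenoceptor, in intraperitoneal doses of 10 mg/kg (numbered 1, 2, 3 and 4). Between 23484190 and 44045575 estimated reads per tumor were assigned to transcripts. Every tumor carried the same single cell line, no normal tissue was included, and each bulk sample also held RNA of the host's own cells. The questions put to the files were which of the receptors the tumors expressed, in which transcript forms, and whether SR59230A changed them.

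Alk, Ret, Ntrk2 (TrkB) and Ntrk3 (TrkC) are receptor tyrosine kinases, proteins with an outer ligand-binding part, a membrane anchor and an inner enzyme that phosphorylates tyrosines once ligands bring receptors together. Ret does not bind its ligands, the GDNF family, alone: a lipid-anchored co-receptor (Gfra1 for GDNF, Gfra2 for neurturin, Gfra3 for artemin) captures the ligand and presents it. TrkB binds BDNF and neurotrophin-4, TrkC binds neurotrophin-3, and Ngfr (p75) has no kinase and binds all neurotrophins. ALK is the kinase most often mutated in NB, RET and the Trk receptors are studied there for their part in differentiation and survival, and the Trk genes also yield forms cut short before the kinase.

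The transcript forms below differ at the point where the sequence for the inner part of the receptor changes, so they are shown as mRNA-sense coding sequence (GENCODE annotation, GRCm38). Lower case marks the last 30 coding bases that a pair of forms shares, and capitals mark bases of the form itself. For Ret, encoded on the minus strand of chromosome 6, the capitals are all remaining coding bases, at chr6:118153856-118154010 for the longer form and chr6:118155259-118155287 for the shorter one. For Ntrk3 (minus strand) they are the first 60 bases of each form's own part, at chr7:78260355-78260414 with the kinase and chr7:78304367-78304426 without it. For Ntrk2 (plus strand) they are likewise 60 bases, at chr13:58985802-58985861 with the kinase and chr13:58887271-58887330 without it.
Ret51 form: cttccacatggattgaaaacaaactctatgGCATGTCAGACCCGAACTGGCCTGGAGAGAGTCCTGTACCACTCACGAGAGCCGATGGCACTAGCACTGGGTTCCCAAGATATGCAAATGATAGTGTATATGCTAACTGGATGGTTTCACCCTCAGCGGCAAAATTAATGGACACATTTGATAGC
Ret9 form: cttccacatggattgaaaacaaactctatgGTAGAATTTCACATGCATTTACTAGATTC
Ntrk3 with kinase: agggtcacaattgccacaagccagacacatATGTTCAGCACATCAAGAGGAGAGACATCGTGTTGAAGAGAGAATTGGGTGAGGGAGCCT
Ntrk3 without kinase: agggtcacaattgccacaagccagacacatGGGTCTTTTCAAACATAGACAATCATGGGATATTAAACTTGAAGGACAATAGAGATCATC
Ntrk2 with kinase: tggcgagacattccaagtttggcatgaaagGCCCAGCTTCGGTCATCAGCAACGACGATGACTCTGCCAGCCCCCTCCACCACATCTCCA
Ntrk2 without kinase: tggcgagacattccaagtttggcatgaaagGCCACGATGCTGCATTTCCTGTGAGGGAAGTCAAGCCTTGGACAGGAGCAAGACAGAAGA

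Libraries were not alike. In vehicle tumors 0 and 3 and SR59230A tumor 4, 11.2%, 8.16% and 6.07% of reads were assigned to 5 transcript models of satellite-like repeats (Gm10800, Gm10801, Gm10718, Gm10719 and Gm10721), against 0.00505% to 0.675% in the other 5 tumors. These models took up to 28.1% of a library's transcripts per 1000000 (TPM), which lowers the TPM of all other genes there. Levels are therefore compared between genes in TPM, which corrects for length, and every edgeR test between groups rests on counts scaled by TMM factors, shown as counts per 1000000 (CPM). Where TPM values of different tumors stand side by side, this lowering is part of them. Sympathetic neuroblast markers were plentiful in all tumors, with a summed level of 1459 to 2604 TPM in the vehicle and 1442 to 1970 TPM in the SR59230A tumors, and among them Hand2 and Dbh were expressed. Of 10 Schwann cell markers, 8 stayed under 1 TPM in every tumor, with Sox10 at no more than 3 reads and Foxd3 at 0. No marker was called by edgeR, and DESeq2 called 2 skeletal muscle markers. By the sign of the log2 fold change, 10 of 11 tested neuroblast markers were lower with SR59230A (median -0.34), as were 7 of 8 endothelial markers (-0.06) and 2 of 2 Schwann cell markers (-0.53). Higher were 7 of 8 macrophage (0.30), 7 of 10 fibroblast (0.29), 5 of 5 adipocyte (1.89) and 6 of 6 skeletal muscle markers (5.13), beside 7541 higher and 7652 lower of all genes tested. Summed muscle markers were at 942.5, 86.92, 18.29 and 20.47 TPM in SR59230A tumors 1 to 4, against 10.7 to 37.93 in the vehicle. Summed adipocyte markers were at 1.588, 5.07, 160.8 and 41.95 TPM in the same tumors, against 3.715 to 27.27 in the vehicle. For both sums the groups overlapped. The part of these cell types in the receptor values was not tested.

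Ret was the main receptor of the set. Its TPM in vehicle tumors 0 to 3 was 179.5, 236.0, 271.0 and 132.4, and in SR59230A tumors 1 to 4 it was 185.6, 290.2, 177.4 and 183.9, on 14184 to 35013 reads per tumor. The mean of 207.0 TPM placed Ret at rank 446 of 21716 protein-coding genes. Every value of Ret lay above every value of the other 7 receptors, and Ret alone made up 67.95% to 79.96% of their summed TPM. Among 44 other receptor tyrosine kinases measured, none had a mean TPM above Ret, and the highest was Ryk, a Wnt co-receptor, at 57.01. Ret lies at chr6:118151745-118197718.

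**Figure D1:**
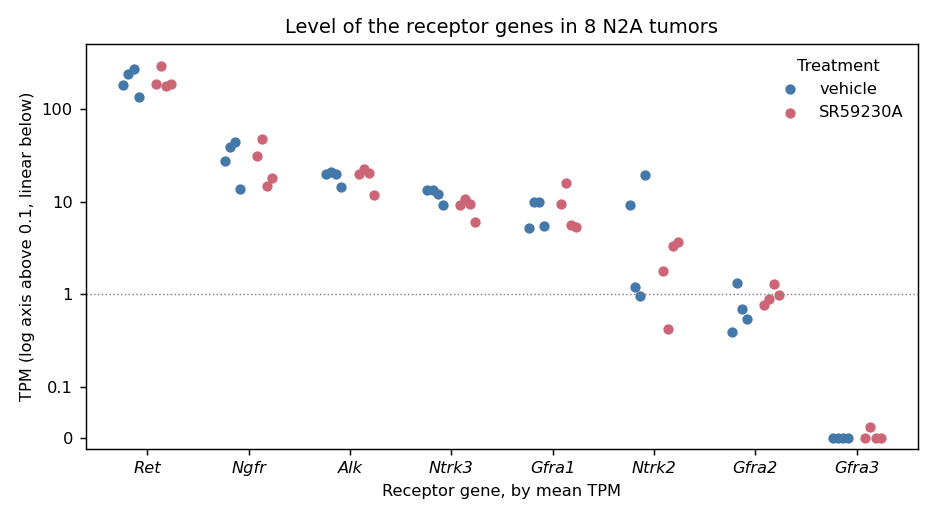
Level of each receptor gene in the 8 tumors, in TPM on an axis that is logarithmic above 0.1 and linear below; each point is 1 tumor, blue for vehicle and red for SR59230A, and the dotted line marks 1 TPM. Ret, at 132.4 to 290.2 TPM, lies above all others, Ntrk2 has the widest spread, and Gfra3 is at 0 in 7 tumors.

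Both tails of Ret were made in every tumor. The longer form, of 1115 codons, ends in the 51 codons of its own that give Ret51 its name, and the shorter, of 1073 codons, ends in 9 (Ret9). Ret51 supplied 39.48%, 39.71%, 42.01% and 45.25% of Ret TPM in vehicle tumors 0 to 3 and 37.64%, 39.42%, 56.18% and 46.5% in SR59230A tumors 1 to 4. Its mean share was 41.61% ± 2.68 (SD, n = 4) in the vehicle and 44.93% ± 8.419 (SD, n = 4) in the SR59230A tumors, and the groups overlapped. Ret9 was the larger share in 7 of the 8 tumors, SR59230A tumor 3 being the exception. The split between forms that share 3190 coding bases is an estimate of the quantification program.

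The co-receptors of Ret were far lower. Gfra1, the GDNF co-receptor (chr19:58235604-58455909), had 5.194, 9.956, 9.971 and 5.476 TPM in the vehicle and 9.447, 16.0, 5.648 and 5.369 TPM in the SR59230A tumors. That was 2.894% to 5.515% of the Ret level, with a median of 3.908%. The 4 tumors numbered 1 and 2 all had more Gfra1 TPM than the other 4, which lay between 5.194 and 5.648, and the same order held in CPM (20.47 to 34.95 against 16.98 to 19.19). Of its 9 transcripts, 1 form held 71.1% to 95.83% of Gfra1 TPM. Gfra2, the neurturin co-receptor (chr14:70890120-70979838), ran from 0.3931 to 1.334 TPM on 29 to 74 reads and reached 1 TPM in only 2 tumors. Gfra3, the artemin co-receptor on chromosome 18, had 0 reads in 7 tumors and 1 read in SR59230A tumor 2, so it could not be tested.

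Ligands of these receptors were scarce in the tumors. Of 12 ligand genes, 3 were expressed at 1 TPM or more in at least 4 tumors, namely pleiotrophin (Ptn), with a mean of 24.12 TPM, midkine (Mdk), with 4.186, and artemin (Artn), with 2.331. Gdnf had 0 to 4 reads per tumor, Nrtn 0 to 3 and Pspn 0 to 1. Among the neurotrophins, Ntf3 had 0 to 2 reads, Bdnf 3 to 30 and Ntf5 5 to 21. For the ALK ligands, Alkal1 had no read and Alkal2 at most 1. The GDNF-family ligand with most reads was Artn, at 31 to 88 per tumor, while its co-receptor Gfra3 had 0 to 1. Gfra4, among the other co-receptors listed, was also low, at 1 to 7 reads per tumor and a mean of 0.2129 TPM.

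Ngfr, the shared neurotrophin receptor (chr11:95568818-95587735), was the next most abundant. Its TPM was 27.63, 38.6, 44.33 and 13.74 in vehicle tumors 0 to 3 and 31.23, 46.74, 14.64 and 18.13 in SR59230A tumors 1 to 4, a mean of 29.38. The 4 tumors numbered 1 and 2 again held the highest TPM, at 31.23 or more, although vehicle tumor 0 was level with them in CPM (72.83, against 61.49 to 89.98). By the TPM of all transcripts, Ngfr exceeded Alk in 6 of 8 tumors, so on that measure these neighbours were not separated beyond their spread. In protein-coding transcripts alone, Ngfr was above Alk in every tumor. Bex3 and Maged1, partners of p75, had means of 304.6 and 212.6 TPM. The 8 Schwann cell markers named above as under 1 TPM give the level of a host cell type that also makes p75, whose part in the Ngfr value was not tested.

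Alk (chr17:71868972-72604627) varied less. It had 19.71, 20.8, 19.74 and 14.23 TPM in the vehicle and 19.96, 22.2, 20.15 and 11.86 TPM in the SR59230A tumors. The 2 lowest values came from libraries with many satellite-like reads, but vehicle tumor 0, with the most such reads, was level with the other tumors in TPM and highest in CPM (61.05). Of 44 other receptor tyrosine kinases, 5 had a mean TPM above that of Alk. Only part of the Alk TPM was assigned to the single protein-coding transcript. Its share was 50.72%, 54.04%, 53.59% and 43.36% in the vehicle and 39.48%, 56.82%, 32.38% and 51.25% in the SR59230A tumors. The rest was assigned to 2 transcripts annotated as retained introns, both shorter than the coding one. This split is an estimate of the quantification program. In reads, the coding transcript had 554.7 to 1692 per tumor, where Alk as a whole had 1142 to 2327. Over all genes, retained-intron transcripts took 2.48% to 4.2% of reads, and both tumors with a coding share under 40% (SR59230A tumors 1 and 3) were among the 3 libraries with the most such reads.

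Ntrk3 (chr7:78175959-78738012) was expressed at 13.32, 13.2, 12.07 and 9.22 TPM in the vehicle and 9.26, 10.63, 9.4 and 6.049 TPM in the SR59230A tumors. By the TPM of all transcripts, it was below Alk in each tumor. In protein-coding transcripts alone, it was above Alk in vehicle tumor 3 (6.893 against 6.173 TPM). The kinase-bearing form, of 825 codons, was the larger of the 2 main forms throughout, at 3.265 to 5.346 TPM. That was 32.9% to 56.37% of Ntrk3 TPM, by the estimate of the quantification program. Part of the rest lay in short transcripts with few reads. In vehicle tumor 0, for example, 1 of 395 bases took 23.51% of Ntrk3 TPM on 18.79 reads. The form that stops after 612 codons, without a kinase, lay between 1.242 and 3.115 TPM. Transcripts with a coding sequence of at least 80% of the longest one supplied 67.72% ± 5.375 (SD, n = 4) of protein-coding Ntrk3 TPM in the vehicle and 68.53% ± 5.092 (SD, n = 4) in the SR59230A tumors, which did not differ beyond the spread (exact two-sided permutation test, p = 0.714). The corresponding share of Gfra1 was 87.66% ± 7.469 and 85.5% ± 3.79 (exact permutation p = 0.629).

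**Figure D2:**
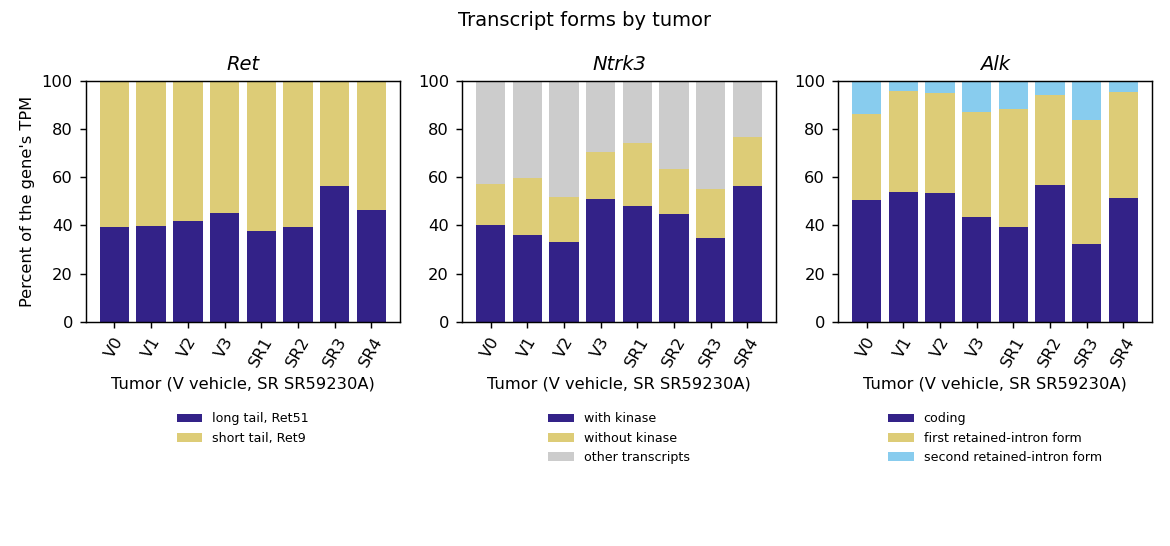
Percent of each gene's TPM by transcript form in each tumor (V, vehicle; SR, SR59230A), stacked to 100. Ret51 ranges from 37.64% to 56.18% of Ret, the Ntrk3 form with kinase exceeds that without in every tumor, and the coding transcript of Alk ranges from 32.38% to 56.82% of Alk.

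Ntrk2 (chr13:58806569-59133970) stood apart from the other receptors in how unevenly it was spread. Its TPM was 9.268, 1.188, 0.9594 and 19.24 in vehicle tumors 0 to 3 and 1.799, 0.4185, 3.315 and 3.69 in SR59230A tumors 1 to 4. The 3 highest values were those of the 3 libraries with satellite-like reads. Almost none of it was the kinase receptor. The 2 full-length transcripts, of 2463 coding bases, together had at most 3.002 reads in a tumor. The main form without kinase, of 489 codons, had 586, 86, 48 and 1371 reads in the vehicle tumors. In the SR59230A tumors it had 101, 28, 119 and 243 reads. This form thus took 71.21% to 98.33% of Ntrk2 reads. Other Ntrk2 transcripts, with 1398 to 1476 coding bases, are also far shorter than full length, so this is the share of 1 short form. The share of long coding sequences was 0.03263% ± 0.0379 of Ntrk2 coding TPM in the vehicle and 0 in the SR59230A tumors (exact permutation p = 0.429).

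The 3′ untranslated region of the main Ntrk2 form without kinase holds a simple repeat, behind its last coding base at transcript position 1505. It consists of 16 copies of AAAG at positions 1908 to 1971 (chr13:58887747-58887810). The first 30 bases are shown because the 3 genes most like Ntrk2 across tumors hold the same repeat.
AAAG repeat: AAAGAAAGAAAGAAAGAAAGAAAGAAAGAA
The same repeat, as a run of 30 bases on either strand, occurs in transcripts of 228 of 35419 genes (0.644%), and Ntrk2 is the only one of the 8 receptor genes among them. Of the 10 Ntrk2 transcripts 2 hold it, the main form without kinase and 1 other. Without these transcripts Ntrk2 had 0.02932 to 0.7546 TPM on 2.059 to 48.12 reads, under 1 TPM in every tumor. Among 11751 genes averaging 100 reads or more, the 3 whose log2 CPM most resembled that of Ntrk2 over the 8 tumors were Vmn1r224 (Pearson r = 0.994), Olfr720 (0.993) and Epha5 (0.993), which are a vomeronasal receptor, an olfactory receptor and a neuronal ephrin receptor. Of the 20 most alike genes 6 hold the repeat, against 1.28% of the 11750 genes compared. The 3 genes just named are among these 6 and are the reason the repeat is shown. The plan named only the 3 most alike genes, so the count over 20 is a description without a test. Whether these reads come from mRNA of the genes or from repeats elsewhere in the genome was not tested.

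**Figure D3:**
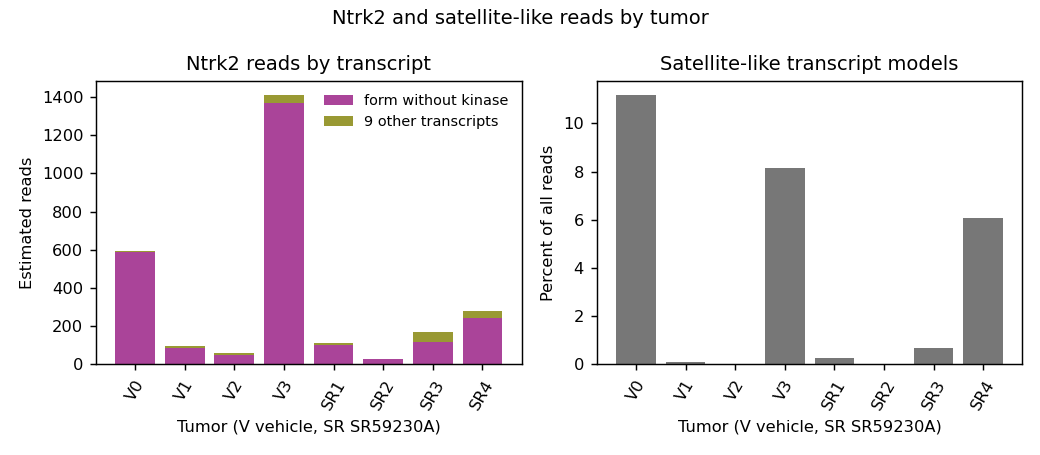
Left, estimated Ntrk2 reads per tumor, split into the main form without kinase and the 9 other transcripts. Right, percent of each library's reads in the 5 satellite-like transcript models (V for vehicle, SR for SR59230A). The tallest Ntrk2 bars, vehicle tumors 3 and 0 and SR59230A tumor 4, belong to the libraries with 6.07% to 11.2% satellite-like reads.

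By level, 6 of the 8 receptors had at least 1 TPM in 4 or more tumors, in the order Ret, Ngfr, Alk, Ntrk3, Gfra1 and Ntrk2, and 5 did so when the Ntrk2 transcripts with the repeat were left out, an alternative chosen after the values were seen. Only the step from Ret to Ngfr, 7.05-fold in mean TPM, was free of overlap among these 6. Neighbours further down crossed in 2 tumors each, except Alk and Ntrk3, whose order held within each of 8 tumors while their ranges overlapped. This order counts all transcripts of a gene, coding or not. In protein-coding transcripts alone, Ngfr (13.74 to 46.74 TPM) lay above Alk (6.079 to 12.62 TPM) without overlap. On that measure Alk was below Ntrk3 in vehicle tumor 3 (6.173 against 6.893 TPM).

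None of the receptors passed the test between SR59230A and vehicle. With edgeR, 0 of the 7 tested receptors passed an adjusted p under 0.05 with a log2 fold change of 0.5 or more in size, and 0 passed an unadjusted p under 0.05. Over all 15193 genes tested the count was 0 as well (0%), while 704 genes passed at an unadjusted p under 0.05 (4.63%, of which 2.22% were higher and 2.41% lower with SR59230A). DESeq2 called 36 of 27585 genes (0.131%), none of them a receptor gene. In 0 of 7 receptors were the groups free of overlap, against 397 of all tested genes (2.61%). In bulk tumors, fewer cells of a type and less RNA per cell cannot be told apart. The p-values set the difference between groups against the spread between the samples.

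For Ret, the vehicle tumors 0 to 3 had 685.4, 621.3, 760.3 and 591.6 CPM and the SR59230A tumors 1 to 4 had 516.1, 743.4, 690.2 and 714.1 CPM. The means were 664.6 ± 74.83 and 665.9 ± 102.2 (SD, n = 4 each). The log2 fold change of 0.0028 had an SE of 0.153 and a 95% interval from -0.34 to 0.35 (edgeR adjusted p = 1.0). The lowest and the second highest tumor were both treated ones, and the interval leaves room for changes of up to 0.35 on the log2 scale either way.

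Of the co-receptors, Gfra1 had 18.7, 20.47, 24.21 and 19.19 CPM in the vehicle and 21.61, 34.95, 16.98 and 18.65 CPM in the SR59230A tumors. The single high value, in SR59230A tumor 2, set the sign: the log2 fold change was 0.16 ± 0.22 (SE) over all tumors (edgeR adjusted p = 0.996) and -0.11 without that tumor. Gfra2 had 1.068, 1.25, 1.328 and 1.685 CPM in the vehicle and 1.473, 1.571, 2.092 and 2.267 CPM in the SR59230A tumors. All 4 treated tumors were above the vehicle median, and vehicle tumor 3 lay within the treated range. Its log2 fold change was 0.47 ± 0.27 (SE) with a 95% interval from -0.14 to 1.08 (edgeR adjusted p = 0.996, exact two-sided permutation p = 0.0857, where 0.0286 is the smallest that 4 against 4 allows).

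Among the neurotrophin receptors, Ngfr had 72.83, 71.45, 89.98 and 40.97 CPM in the vehicle and 61.49, 84.33, 38.98 and 49.15 CPM in the SR59230A tumors. Low tumors occurred in both groups, and the log2 fold change was -0.23 ± 0.28 (SE, edgeR adjusted p = 0.996). Leaving out SR59230A tumor 2 gave -0.46, leaving out vehicle tumor 3 gave -0.42, and leaving out vehicle tumor 2 or SR59230A tumor 3 gave -0.075 or -0.0828. With both SR59230A tumors 1 and 2 removed it was -0.64. Ntrk3 had 95.18, 61.69, 50.71 and 100.02 CPM in the vehicle and 57.64, 58.47, 63.11 and 59.18 CPM in the SR59230A tumors. Vehicle tumors 0 and 3, both among the satellite-rich libraries, were high and all others lay between 50.71 and 63.11. The log2 fold change of Ntrk3 was -0.37 ± 0.20 (SE) with a 95% interval from -0.83 to 0.09 (edgeR adjusted p = 0.996), 0.10 when the same 3 satellite-rich libraries were left out, and -0.68 in the 4 tumors not numbered 1 and 2.

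Ntrk2 had 21.94, 1.988, 1.781 and 54.11 CPM in the vehicle and 3.083, 0.6369, 8.126 and 9.583 CPM in the SR59230A tumors, so the vehicle tumors alone spanned the range of the treated ones except its lowest value. The log2 fold change was -1.91 ± 1.12 (SE) with a 95% interval from -4.42 to 0.60 (edgeR adjusted p = 0.996). Leaving out vehicle tumor 3 gave -0.68, and leaving out the 3 libraries rich in satellite-like reads gave 1.07, so that the sign depended on them. For Alk, the vehicle tumors had 61.05, 46.36, 47.33 and 50.32 CPM and the SR59230A tumors 43.07, 49.4, 55.57 and 39.74 CPM, an estimated log2 fold change of -0.13 ± 0.14 (SE) with an interval from -0.43 to 0.18 (edgeR adjusted p = 0.996). It was 0.09 without the same 3 libraries.

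**Figure D4:**
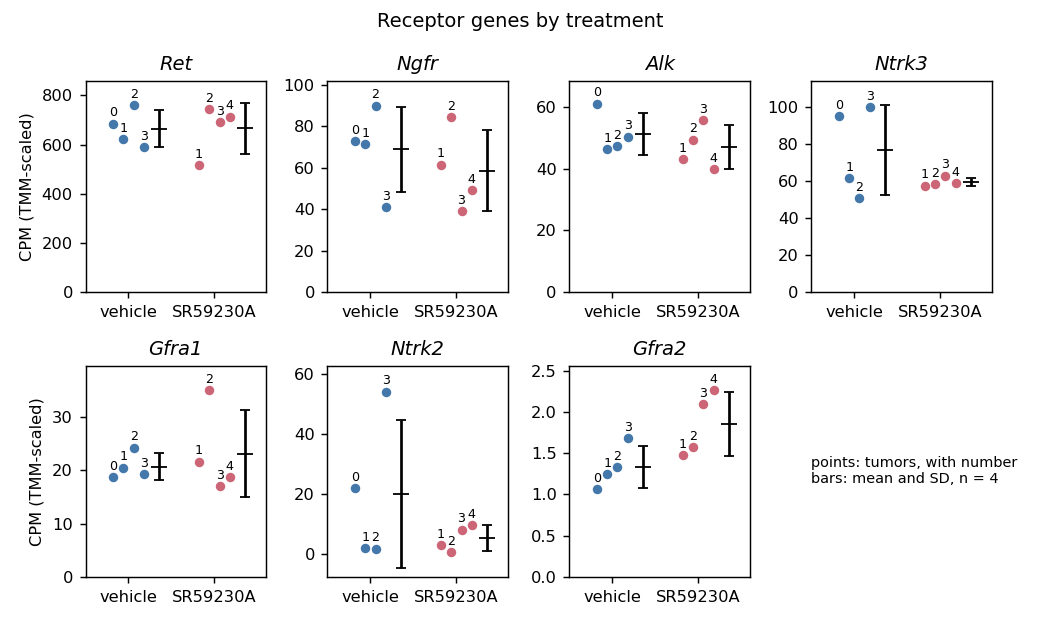
CPM (TMM-scaled, linear axes) of the 7 tested receptor genes in each tumor, numbered as labelled, with mean and SD (n = 4) beside each group. The groups overlap for every gene; vehicle tumors 0 and 3 are high for Ntrk2 and Ntrk3.

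**Figure D5:**
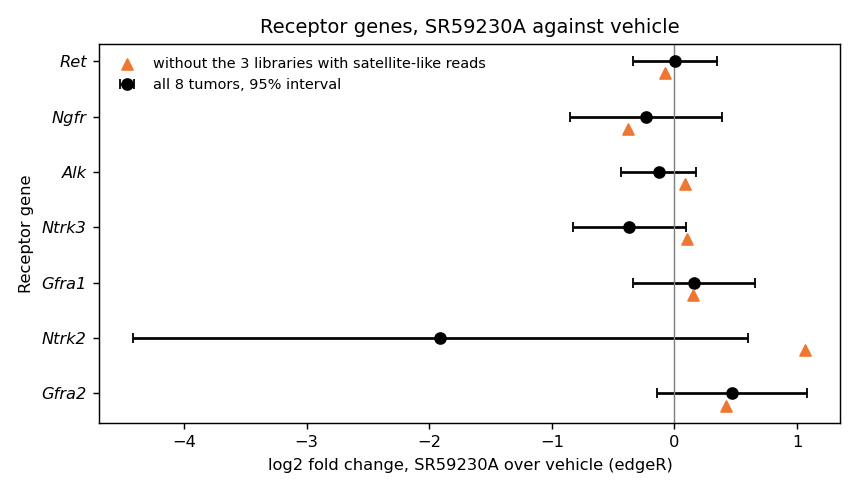
Log2 fold change of SR59230A over vehicle for the 7 tested receptor genes (edgeR), as black points with 95% intervals from all 8 tumors and as orange triangles from the 5 tumors with little satellite-like RNA. All intervals include 0, and the triangle for Ntrk2 lies at 1.07 against -1.91 with all tumors.

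Genes that work with the receptors showed no call either. Of the 12 ligands 4 could be tested, and 0 passed, with 2 higher, 2 lower and a median log2 fold change of 0.10. Artn was 1.955 ± 0.4005 TPM in the vehicle and 2.707 ± 1.038 TPM in the SR59230A tumors (SD, n = 4 each), a log2 fold change estimated at 0.46 (edgeR adjusted p = 0.996), and the groups did not overlap in log2 CPM, as in 1.33% of all tested genes with the treated group higher and 1.28% with it lower. Ptn (0.44) and Mdk (-0.72) had overlapping groups. Of 19 other co-receptors and partners, 13 were tested, 0 called, and 2 had an unadjusted p under 0.05, both lower, where 2.41% of all genes tested did so. These were Bex3 (-0.38) and the heparan sulfate proteoglycan Sdc3 (-0.39), while Ncam1, an alternative GDNF receptor with a mean of 76.46 TPM, had a log2 fold change of -0.27.

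Of 28 adaptors and enzymes that receptor kinases recruit, 24 were expressed and 25 tested, with 0 called, 9 higher and 16 lower at a median of -0.07, against -0.0016 over all genes tested. The most abundant were Shc1, Crk and Sos2 (72.56, 57.99 and 52.13 TPM), and those with the smallest p were Shc1 (-0.26), Pik3r1, a PI3-kinase subunit (-0.31), and Shc3, a neuronal Shc adaptor (0.91). Of 19 inhibitors and feedback targets, 18 were tested and 0 called, with 2 higher and 16 lower at the same median of -0.07, beside 7541 higher and 7652 lower among all genes tested. The ERK phosphatases Dusp4 and Dusp6 and the ERK-induced factor Etv4 were well expressed (95.79, 70.15 and 56.65 TPM) with log2 fold changes of -0.06, -0.04 and -0.03, and Sh2b3, Dusp5 and Spry2 had -0.32, -0.40 and -0.29. Of 44 other receptor tyrosine kinases, 36 were tested and 0 called, 20 higher and 16 lower. Ror1 (1.03) and Pdgfra (0.60) had an unadjusted p under 0.05 and were higher, as 2.22% of all genes tested were, and Fgfr1 was next (0.36). Ror1 averaged 0.2241 TPM, and its groups did not overlap in log2 CPM, as in 1.33% of all tested genes with the treated group higher. Pdgfra marks fibroblasts, whose 10 markers summed to 208.8 to 300.0 TPM in the vehicle and 205.9 to 465.5 TPM in the SR59230A tumors, and their part in the Pdgfra value was not tested. The most abundant kinases after Ret were Ryk, the collagen receptor Ddr2 (49.31 TPM) and Fgfr1 (30.94 TPM).

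Across tumors the receptors did not move as 1 group. Over 8 tumors, which share library composition and depth, Pearson's r of log2 CPM was 0.694 between Ngfr and Gfra1, 0.831 between Ntrk3 and Ntrk2, and -0.754 between Gfra1 and Ntrk2, while Ret stayed between -0.258 and 0.325 with the other 5 expressed receptors. The genes most like Ret were Kxd1 (0.953), Snx19 (0.943) and Pfkfb4 (0.932), and those most like Ngfr were Asb8 (0.993), Sh3gl1 (0.985) and Trim28 (0.979). Alk most resembled Ifnar1 (0.957), Cpeb1 (0.938) and Hid1 (0.933), and Gfra1 resembled Osbpl1a (0.972), Mbtps1 (0.953) and Acsl5 (0.929). For Ntrk3 they were P4ha2 (0.971), whose transcripts also hold the AAAG run, Dnal1 (0.96) and Chd6 (0.957). These values describe 8 points and carry no test.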

How the data were processed

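Total RNA libraries of 8 N2A tumors (4 vehicle, 4 SR59230A) were analysed. The authors ran Salmon, and the deposited output gives, for every transcript, an estimated count, a TPM value and an effective length. The methods name GRCm38 and the submitters' processing notes GRCm39. A deposited table of DESeq2-normalized counts (a signal scaled between libraries, 15035 symbols) holds 3 of the receptor genes and served as an alternative. One of its columns, named V, was taken as a vehicle tumor without a number.

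Transcripts were matched by identifier to GENCODE (GRCm38; 99.09% of 116747). Estimated counts were summed per symbol, rounded and tested with edgeR 4.0.16 in R 4.3.3 (TMM, default low-count filter, quasi-likelihood, Benjamini-Hochberg), by treatment alone. DESeq2 1.42.0 and limma 3.58.1 were alternatives. Single values used exact permutation of 70 assignments. The test was run on simulated counts with 200 genes changed. These had the same spread for all genes and no differences in library composition, so they do not vouch for its accuracy in these tumors. Levels counted as expressed at 1 TPM in at least 4 tumors. Named pathway genes were up to 3 per list by mean TPM and up to 3 by unadjusted p, and for each expressed receptor the 3 most alike genes; single ligands with few reads and the markers were named after their values were seen. Receptors and lists were chosen with earlier results of these data known. The study speaks of duplicates where the labels give 8 tumors, and all 8 were used. Intervals reflect the spread between samples; the smallest permutation p is 0.0286.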

Additional observations from a re-analysis of the deposited data

Results flagged for a closer look

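Of 34 groups of 4 tumors checked (TPM and CPM of the 7 tested receptors, and the shares of 3 transcripts), 2 held a value far from the other tumors by Dixon's test, where chance gives about 1 in 20. Vehicle tumor 3 had 14.23 TPM of Alk, below the other vehicle tumors, with a gap of 0.835 of the group's range. SR59230A tumor 2 had 290.2 TPM of Ret, above the other treated tumors, with a gap of 0.928 of the range. In CPM neither tumor stood out for these genes.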

How the results depend on the processing

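No receptor or listed pathway gene was called under any alternative, and 5 to 7 receptors counted as expressed. The count over all genes was 36 with DESeq2, 5 in the 4 tumors not numbered 1 and 2, and 0 to 1 when single tumors were left out (1 without SR59230A tumor 4). Ret's log2 fold change, near 0, turned to -0.0047 with DESeq2, -0.0037 with RLE factors, -0.0312 with library totals, -0.0228 with a replicate block, -0.13 in tumors 1 and 2 only, -0.0727 without the 3 libraries with satellite-like reads, and ran from -0.055 to 0.1078 when single tumors were left out. Without those 3 libraries Alk was at 0.0893, Ntrk3 at 0.1006 and Ntrk2 at 1.07. Alk was at 0.0357 with the replicate block and Ntrk3 at 0.0486 in tumors 1 and 2 only. In the other direction, Ntrk3 was at -0.68 in the 4 tumors not numbered 1 and 2, at -0.51 with transcript length offsets and at -0.52 without vehicle tumor 2, with unadjusted edgeR p of 0.00366, 0.0126 and 0.0116 and no adjusted call. Gfra1 was at -0.10 in the 4 tumors not numbered 1 and 2, at -0.21 without SR59230A tumors 1 and 2, and from -0.11 to 0.28 with single tumors left out. The difference in the share of long coding sequences ran from -1.029 to 2.804 percentage points for Ntrk3 and from -5.349 to 0.5627 for Gfra1 when single tumors were left out. The causes were not tested.

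The labels do not say whether the shared numbers 1 to 3 pair the tumors. Deviations of same-numbered tumors from their group means correlated at 0.01041, 0.6255 and 0.5337. Vehicle tumors 2 and 3 correlated best with the treated tumor of their own number, and vehicle tumor 1 with SR59230A tumor 2 (0.6306). Pairing cannot be decided from these correlations, which also carry differences in library composition. With the replicate block edgeR called 0 of 15821 genes. Ntrk2 was estimated at -2.11 in the 4 tumors not numbered 1 and 2 (edgeR adjusted p = 0.163, and 0.163 to 1.0 over its alternatives). Gfra2 rests on 29 to 74 reads per tumor, and Gfra3 on at most 1.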
